A study of Arabidopsis thaliana with 8 samples.

Results

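Of 25433 loci measured in whole seedlings of Arabidopsis thaliana, 239 gave a signal well above background on all 4 arrays of the tt8-3 line and on none of the 4 arrays of its wild type. These 239 genes, 0.94% of the loci, were chosen by their detection flags on all 8 arrays, so the difference between the lines in them is a description that carries no test. Each locus was read from its brightest probe, and a flag of 1 means that the scanner software called the spot well above its local background. The opposite pattern, detection on all wild-type arrays and on no tt8-3 array, was found for 2 loci (0.00786%), which were TT8 itself and AT4G29103. A further 18301 loci were detected on all 8 arrays and 4232 on none.

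Both lines are in the Wassilewskija (Ws) background, and tt8-3 carries a loss of function of TT8, while the wild type is Ws without it. Seedlings of both lines were 6 days old and grown on MS medium with 5% sucrose under 16 h of light, and whole seedlings were the source of the RNA. The arrays were 1-colour Agilent Arabidopsis arrays on 2 slides, each slide with 2 arrays of each line: replicates 1 and 2 lay on slide 1, replicates 3 and 4 on slide 2. The design text gives 2 biological replicates per line and technical replicates on each slide, so n = 2 slide averages below. The text can also be read with replicates 1 and 3, and 2 and 4, as the technical replicates. Each slide average would then mix biological replicates, and the SE and adjusted p values from slide averages would measure technical spread. Arrays of a line on 1 slide were no more alike than its other arrays (consensus correlation -0.21). Members differed by a median of 0.27 log2 units between replicates 1 and 3 and replicates 2 and 4 in tt8-3, and by 0.18 between slides. The SD and SE values below, which are over slide averages, leave out the spread between replicates 1 and 3 and replicates 2 and 4. The design text does not say that seedlings of separate cultures stand behind the slide averages, and the spread between these averages may be technical. On both slides the wild type took the first positions and tt8-3 the last, and an effect of position cannot be told apart from one of genotype.

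TT8 encodes a basic helix-loop-helix transcription factor that acts with MYB and WD40 partners to switch on flavonoid genes in the seed coat and seedling, and plants without it have pale seeds. The members include genes of several other systems. Plant immune receptors sense pathogen molecules, or their effects, inside the cell or at its surface. Jasmonate and salicylic acid are the hormones that call up defence proteins after wounding and infection, and seed storage proteins are normally shut off after germination.

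The labels were checked on TT8. Its levels in wild type were 4.26, 4.39, 4.19 and 4.29 in replicates 1 to 4, and its levels in tt8-3 were -6.04, -5.56, -6.95 and -7.07. A level here is the processed signal of a spot on a log2 scale, taken relative to the 75th percentile of its array, so 0 is a bright spot and -6 lies near the lowest spots called detected. The lines did not overlap, as the labels imply. The share of probes called detected was 69.0% to 71.7% on wild-type arrays but 70.9% to 77.3% on tt8-3 arrays, so detection was wider in the line that holds the 239 genes. The part of this in the list was not tested. Asking for fewer arrays can only lengthen the list: without the wild-type arrays of slide 1 it held 393 loci, and without the tt8-3 arrays of slide 1 it held 440.

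The 239 genes were mostly dim in tt8-3. Their median level there was -4.67, with quartiles of -5.36 and -3.23, against a median of -0.36 over the loci detected on all 8 arrays. Levels of different probes also carry the efficiency of each probe, so an order of members below is an order of signals, not of transcript amounts. Above the 75th percentile of the array lay 12 members, above -2 lay 34, and above -4 lay 91. In wild type the median of the members was -7.54. In whole seedlings, fewer cells of a type that makes a transcript and less of it per cell cannot be told apart.

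**Figure D1:**
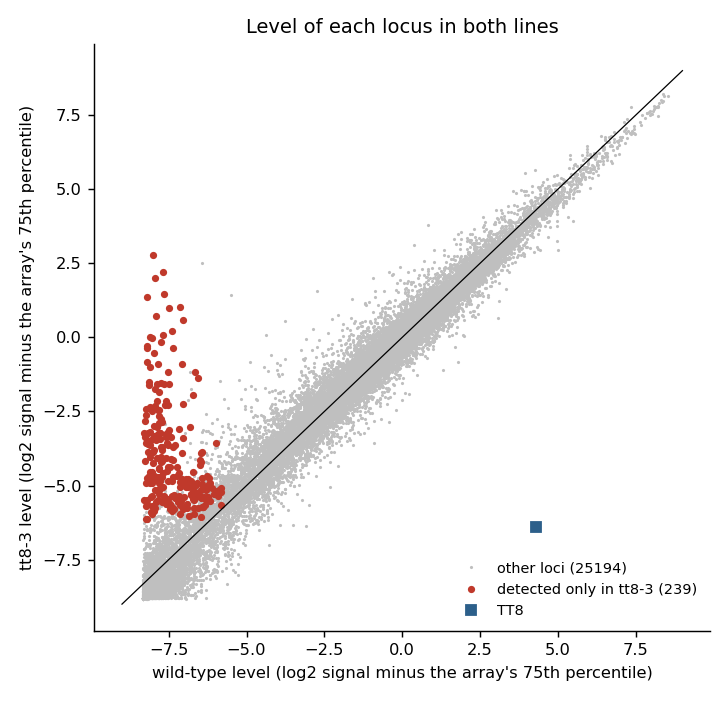
Mean level of each locus in wild type (x axis) and in tt8-3 (y axis), both in log2 units relative to the array's 75th percentile, with 25194 other loci in grey, the 239 members in red, TT8 as a blue square and a line of equal levels. The members form a column on the left, from -6.13 to 2.78 in tt8-3, over wild-type means of -5.81 or less.

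Because wild-type spots of members were not well above background, only a lower bound on the difference can be given. It sets the mean level in tt8-3 against, on each wild-type array, the lowest signal called well above background or the probe's own signal if that was higher. The bound was at least 2-fold for 150 members, at least 10-fold for 47 and at least 100-fold for 8, with a median of 2.50-fold, or 1.32 on the log2 scale. With normexp background correction without spots of flagged background, an alternative added after the data were seen, that median was 0.29. For 5 members it fell under 1-fold, and no bound is given for them. All 4 tt8-3 levels lay above all 4 wild-type levels in 226 of the 239, where 19.6% of the 19227 loci tested show that order, and nothing is read from this since the same arrays chose the members. The gap between the lowest tt8-3 and the highest wild-type level exceeded 2 log2 units in 122 members and 4 in 59.

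**Figure D2:**
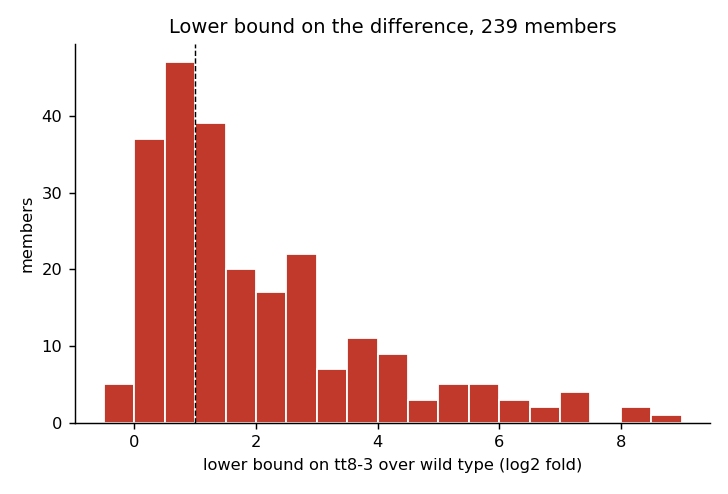
Number of members (y axis) by their lower bound on tt8-3 over wild type, in log2 fold (x axis), with a dashed line at 2-fold. Most members sit at low bounds, 150 are at or past the line, and the highest is 8.78.

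The strongest member was AT4G34881, a locus without a symbol in the gene table. Its processed signals in tt8-3 were 6354, 4750, 7637 and 6487, and those in wild type were 2.54, 2.21, 3.64 and 3.96. Its levels were 2.98, 2.66, 2.94 and 2.54 in tt8-3 and between -8.51 and -7.75 in wild type, a mean of 2.78 ± 0.0542 (SD, n = 2) and a signal at least 439-fold higher. All 4 tt8-3 arrays placed it among their bright probes and all 4 wild-type arrays placed it at the floor.

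AT5G05060 followed, with levels of 2.39, 2.13, 2.27 and 2.05 in tt8-3 and none above -6.90 in wild type, at least 296-fold higher. ECS1, which encodes a protein associated with the cell wall, had levels of 2.31, 2.06, 2.03 and 1.64 in tt8-3 and -7.69, -8.41, -7.73 and -7.93 in wild type, at least 258-fold higher. ZW9 stood at 1.58, 1.56, 1.44 and 1.298 in tt8-3 and between -8.06 and -7.50 in wild type, at least 177-fold higher. In each of these 3 genes the tt8-3 arrays lay within 1 log2 unit of each other and far above every wild-type array. AT1G66090 (mean level 1.35, at least 163-fold), AT2G04378 (1.04, at least 130-fold) and AT1G66100 (1.00, at least 128-fold) completed the first 7.

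The next 13 by signal ran from HR4 at 0.73 to AT1G63880 at -0.90, with bounds from 106-fold to 33.9-fold. Among them TGG2, FLA18, AT14A and EXO84B have symbols and are described with their groups. The others are AT5G44572, AT3G47250, AT1G24996, AT5G26270, AT1G25211, AT5G05040 and AT3G62460, so that 13 of the 20 brightest members have no symbol in the gene table. Over all members 171 of 239 (71.5%) had none, against 60.3% of all loci.

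**Figure D3:**
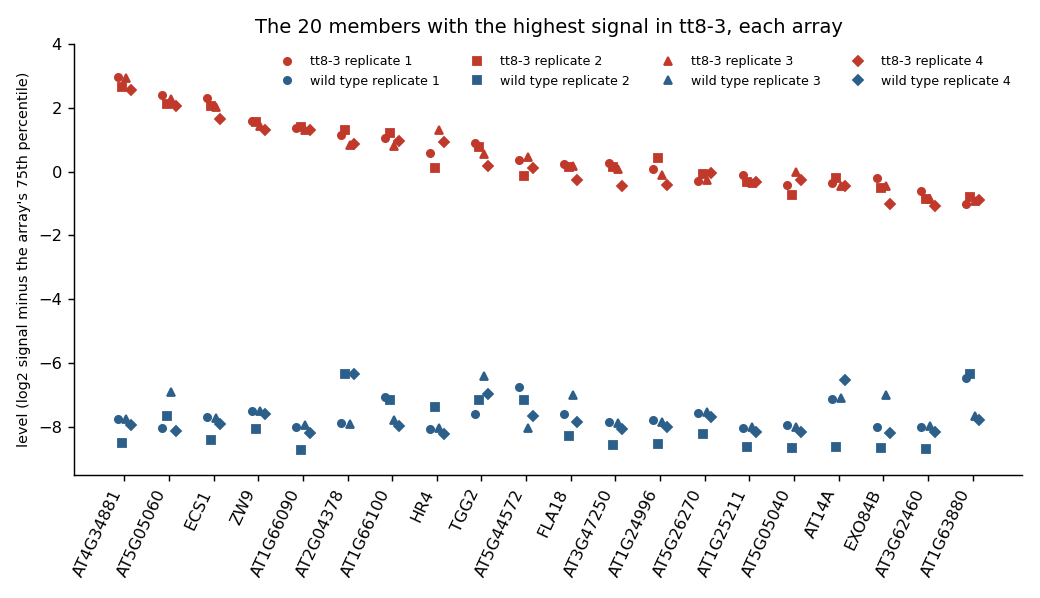
Level on each of the 8 arrays (y axis, in log2 units relative to the array's 75th percentile) for the 20 members with the highest signal in tt8-3 (x axis), with tt8-3 arrays in red, wild-type arrays in blue and a marker shape for each replicate. The lowest tt8-3 point is at -1.08 and the highest wild-type point at -6.34.

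A role group of immune receptors, ion channels and defence genes held 18 of the 61 members placed in role groups. The glutamate receptor channels GLR2.3 and GLR2.2 were counted in it. Role groups were formed after the members were seen and have no share over all loci beside them. Only members with a symbol were placed, so the 171 without one are in no group, whatever their role. By symbol or synonym, the class of kinases and receptor-like proteins gave 5 members of 549 loci (0.911%), where 0.94% of all loci were members. This class is not the role group, and it leaves out every locus without a name beyond the locus. The share of immune receptors among the members is therefore not known. The levels of the 18 in tt8-3 ran from -5.90 to 0.73. A bound of at least 2-fold was found for 11 of the 18, where 150 of all 239 members had one. The brightest was HR4, a homologue of the RPW8 genes that give broad resistance to powdery mildew. HR4 had levels of 0.57, 0.11, 1.298 and 0.92 in tt8-3 and -8.07, -7.38, -8.03 and -8.21 in wild type, at least 106-fold higher. Its 4 tt8-3 arrays spread over more than a log2 unit, with both arrays of slide 2 above those of slide 1.

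DAR4 and WRR4 encode intracellular receptors of the TIR type, DAR4 with an added LIM domain and WRR4 known for resistance to white rust. DAR4 had levels of -1.17, -0.72, -1.18 and -0.89 in tt8-3 and none above -7.88 in wild type, at least 32.2-fold higher. WRR4 had levels of -1.68, -1.53, -1.62 and -1.44 in tt8-3 and none above -7.04 in wild type, at least 21.6-fold higher. Both were steady across the tt8-3 arrays and at the floor on the wild-type arrays.

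CSA1, which encodes the receptor that works in a pair with DAR4 and lies beside it, missed the rule by 1 array. It had levels of -1.80, -1.92, -1.55 and -1.68 in tt8-3 and -8.00, -2.90, -8.04 and -8.18 in wild type. Wild-type replicate 2 alone detected it, more than 5 log2 units above the other wild-type arrays.

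At the cell surface, the receptor-like proteins RLP19 and RLP2 had mean levels of -3.12 and -4.53 (at least 7.36-fold and 2.77-fold higher), 2 of 51 loci of that family. The cysteine-rich receptor-like kinases CRK30 and CRK23 stood lower, at -4.90 and -5.61. Both families of ion channels looked at held 2 members each, the cyclic nucleotide-gated channels CNGC12 and CNGC11 (-4.18 and -5.90, of 17 loci), which act in immune signalling, and the glutamate receptor channels GLR2.3 and GLR2.2 (-5.05 and -5.77, of 14 loci). The bounds of CNGC11 and GLR2.2 were 1.07-fold and 1.17-fold, and both fell under 1-fold with that normexp correction. Family counts here and below stand against 0.94% of all loci. Every family counted held a member except the UDP-glycosyltransferases (0 of 58 loci), so nothing is read from these counts.

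Defence genes downstream of the receptors were dim as well. FMO1, which makes the systemic signal N-hydroxypipecolic acid, had levels of -4.97, -5.11, -4.17 and -4.88 in tt8-3 and -6.72, -7.55, -6.63 and -7.35 in wild type, at least 2.33-fold higher. WRKY54 and WRKY38, factors that tune salicylic acid responses, had mean levels of -4.56 and -5.36 and bounds of 2.71-fold and 1.56-fold, and they were 2 of 65 WRKY loci. AIG1, first known as a gene induced by a bacterial effector, stood at -5.20, at least 1.74-fold higher. In all 4 of these genes the lowest tt8-3 level lay above the highest wild-type level. The same order held in 226 of all 239 members and in 19.6% of the loci tested, so nothing is read from it.

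THI2.1, an antimicrobial thionin, BG3, a beta-1,3-glucanase, and JAL23, a jacalin-related lectin, differed between tt8-3 arrays. JAL23 had levels of -5.19, -2.06, -5.47 and -1.77 in tt8-3 and none above -6.77 in wild type. Its replicates 2 and 4 were more than 3 log2 units above replicates 1 and 3, on both slides. THI2.1 was also higher in replicates 2 and 4 (-4.04 and -4.09 against -5.68 and -5.01), whereas BG3 was higher in replicates 1 and 3 (-4.82 and -4.77 against -6.12 and -6.02).

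Enzymes of specialised metabolites, hormones and lipids were 10 of the members with known roles. A bound of at least 2-fold was found for 8 of the 10, where 150 of all 239 members had one. TGG2, a myrosinase that cleaves glucosinolates into defensive products, had levels of 0.90, 0.76, 0.56 and 0.18 in tt8-3 and -7.61, -7.17, -6.41 and -6.98 in wild type. Its bound was 96.9-fold and the lines stood 6.59 log2 units apart at their nearest arrays. SEH, a soluble epoxide hydrolase, had levels of -1.59, -2.09, -1.35 and -1.93 in tt8-3 and none above -7.66 in wild type, at least 19.1-fold higher.

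JMT, which methylates jasmonic acid to its volatile ester, had levels of -4.43, -4.08, -4.73 and -4.21 in tt8-3 and none above -7.21 in wild type, at least 3.12-fold higher. HSD3 and HSD5, hydroxysteroid dehydrogenases, had mean levels of -3.10 and -5.36 and were 2 of 6 loci of their family, a count from which nothing is read. MIOX4, a myo-inositol oxygenase, stood at -4.06. PEN1, a triterpene synthase, stood at -4.14 in tt8-3 and -6.50 in wild type, at least 3.63-fold higher.

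Of 217 cytochrome P450 loci, 3 were members, where 0.94% of all loci were. CYP705A27 had levels of -3.58, -2.90, -3.42 and -3.002 in tt8-3 and none above -8.06 in wild type, at least 6.84-fold higher. CYP82G1, which makes a volatile homoterpene, had levels of -5.87, -3.42, -6.20 and -3.22 in tt8-3, again high in replicates 2 and 4, and none above -6.47 in wild type. CYP705A5, an enzyme of the thalianol pathway, had a mean of -5.65 in tt8-3 and -5.81 in wild type, and its lines overlapped: it met the rule with nearly equal signals.

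By symbol or synonym, the cell wall class gave 2 members of 186 loci (1.08%), where 0.94% of all loci were members. This class is not the role group below, and it leaves out every locus without a name beyond the locus. The role group of cell wall, cytoskeleton and vesicle genes, formed after values were seen, had a median bound of 7.74-fold. It held 11 members, 10 of 11 at 2-fold or more, where 150 of all 239 members were. Besides ECS1 they included FLA18, a fasciclin-like arabinogalactan protein, with levels of 0.24, 0.15, 0.19 and -0.27 in tt8-3 and none above -7.01 in wild type, at least 67.6-fold higher. EXO84B, a subunit of the exocyst that tethers secretory vesicles, had levels of -0.20, -0.51, -0.45 and -1.01 in tt8-3 and none above -7.00 in wild type, at least 44.0-fold higher. Both genes were bright on every tt8-3 array.

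AT14A, whose product resembles animal integrins in part, had a mean level of -0.37 and a bound of 49.7-fold. ARPC4, a subunit of the complex that branches actin filaments, had levels of -2.22, -2.37, -2.15 and -2.59 in tt8-3 and none above -7.83 in wild type, at least 12.7-fold higher. DIR5, a dirigent protein, VAMP728, a vesicle fusion protein, and FLA14 had means of -3.01, -3.69 and -4.70. SEC14 and ATCSLA15 stood at -4.91 and -4.97, and RIC7, an effector of small GTPases, had overlapping lines (lowest tt8-3 level -6.15, highest wild-type level -5.76).

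The 14 members that act in transcription, signalling peptides or development were dim: 4 of 14 had a bound of at least 2-fold, where 150 of all 239 members had one. SEP4, a MADS factor of flower organs, had levels of -3.51, -3.33, -3.31 and -3.26 in tt8-3 and -7.84, -8.72, -6.56 and -6.59 in wild type, at least 6.26-fold higher. VIM5, a relative of the factors that maintain DNA methylation, had levels of -3.73, -3.74, -2.75 and -2.79 in tt8-3 and none above -7.23 in wild type, with both arrays of slide 2 above those of slide 1. AGL14, a MADS factor of roots, and MYB10 stood at -4.80 and -4.74.

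MYB111, an activator of flavonol genes, had levels of -5.29, -4.23, -5.42 and -4.73 in tt8-3 and -5.48, -6.13, -6.35 and -6.75 in wild type. The nearest arrays of the lines were 0.06 apart and the bound was 1.92-fold. TFL1, which keeps the shoot tip from forming a flower, stood at -5.71 with a bound of 1.22-fold. LBD25, BBX29, ASML2, SRF2, RGF3, CLL2, TAC1 and MEE3 lay between -5.97 and -5.10, with bounds from 1.02-fold to 1.87-fold, close to the limit of detection.

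Of 22 genes of seed maturation, 2 were members. OLEO2, an oil body protein of seeds, had levels of -2.46, -4.67, -2.44 and -4.71 in tt8-3 and -6.82, -5.73, -5.37 and -6.02 in wild type, at least 4.39-fold higher. CRA1, a seed storage globulin, had levels of -3.53, -5.88, -3.58 and -5.71 in tt8-3 and none above -7.27 in wild type, at least 2.51-fold higher. Both were more than 2 log2 units higher in replicates 1 and 3 than in replicates 2 and 4. The heat shock proteins HSP21 and ATHSP22.0 went the other way. HSP21 had levels of -5.78, -3.84, -5.85 and -3.96 in tt8-3 and none above -6.33 in wild type, and ATHSP22.0 had overlapping lines.

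Differences of this kind seldom lay between slides: 15 members differed by more than 1 log2 unit between replicates 1 and 3 and replicates 2 and 4, and 2 members did so between the slides. Whether replicates 1 and 3 differ from 2 and 4 by position or as biological replicates cannot be told from the design text. Of the 15, 7 were higher in replicates 1 and 3. Over all members the median range of the 4 tt8-3 arrays was 0.57, and the largest was 3.70.

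Transporters and related proteins were 4 members. NIP6;1, a channel for boric acid, had levels of -3.86, -3.55, -3.82 and -3.50 in tt8-3 and none above -7.22 in wild type, at least 4.98-fold higher. GDU5, of a family that affects amino acid export, stood at -3.88 and PCR1, of a family tied to cadmium resistance, at -4.55. ZIP7 of the metal transporter family had overlapping lines at -5.69 and -6.95.

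Other genes of the pathways these members come from were looked at through gene lists. The lists were written with earlier results of these data known, so their counts describe the listed genes and do not test a pathway. List genes that were not members were read from the limma fit over all loci tested, members included. In that fit 15.7% of 19227 loci were higher in tt8-3 and 11.0% lower at a limma adjusted p under 0.05. JMT was the 1 member among 18 genes of jasmonate and wounding. Of the other genes in that list 15 were tested and 12 were higher, none lower, with a median log2 change of 1.45. LOX2, which starts jasmonate synthesis, was higher by 1.35 ± 0.11 on the log2 scale (SE, n = 2), and VSP1, a storage protein that jasmonate induces, by 2.34 ± 0.11 (limma adjusted p = 0.0060 and 0.0024, and 0.072 and 0.17 with arrays averaged by their order). Blocking by slide gave 12 higher and 2 lower (33.8% and 30.8% over all loci), and with arrays averaged by their order on the slide 5 were higher and none lower (2.73% and 0.38%).

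FMO1 and WRKY38 were the members among 18 genes of salicylic and pipecolic acid defence. Of 12 others tested, 7 were higher and 1 lower, with a median log2 change of 0.95. CBP60G, a regulator of salicylic acid synthesis, was higher by 1.40 ± 0.19, and EDS16, an enzyme of that synthesis, was lower by a log2 change of -1.31 ± 0.18. Blocking by slide gave 8 higher and 2 lower. The limma adjusted p of these genes was 0.015 each, and 0.24 and 0.048 with arrays averaged by their order, where none of the list was higher and 1 was lower. PR1, the classical marker of salicylic acid, was detected on no array of either line.

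In the seed maturation list, 7 genes that were not members could be tested and 2 were higher and 1 lower, while 5 of the 22 were detected on no array. EM1, a protein of late seed development, was higher by 1.80 ± 0.13 and DOG1, the dormancy regulator, lower by a log2 change of -1.22 ± 0.12 (limma adjusted p = 0.0053 and 0.0088). The slide as a block gave 3 and 2, and averaging arrays by their order gave no call either way (limma adjusted p = 0.065 and 0.078 for these genes). MYB111 was the member among 21 flavonoid genes. Of 14 others tested, TT8 included, 1 was higher and 3 lower, and 4 of the 21 were detected on no array; with the slide as a block the counts were 3 and 7, and with arrays averaged by order 1 and 1.

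CYP705A5 was the member among 9 genes of camalexin and other phytoalexins, where 6 others were tested and 3 were lower and none higher (4 lower with the slide as a block, none with arrays averaged by order). As a check of the tissue, all 4 shoot markers and 4 of 5 root markers were detected on all 8 arrays. No gene of the shoot, root, pollen and flower lists was a member. These lists are short, and the members SEP4, a MADS factor of flower organs, and AGL14, one of roots, are not on them. Of 12 pollen genes 10 were detected on no array, and of 10 flower genes 6 were. The flower genes PI and SEP3 were detected on all 8 arrays at mean levels from -2.22 to -1.17, and were higher in tt8-3 by 0.42 ± 0.098 and 0.53 ± 0.082 on the log2 scale (limma adjusted p = 0.047 and 0.019, and 0.52 and 0.14 with arrays averaged by order).

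Of the 5 root markers tested with limma, 1 was higher in tt8-3 and 1 lower, where 15.7% and 11.0% of all loci tested were. The root marker PYK10, a beta-glucosidase, was higher by 0.71 ± 0.11 (limma adjusted p = 0.021, and 0.30 with arrays averaged by order). NRT2:1, a root nitrate transporter, was lower by a log2 change of -2.05 ± 0.11 (limma adjusted p = 0.0032). The root markers SCR, EXPA7 and CASP1 had log2 changes of -0.023, -0.13 and -0.14 and were not called. The 4 shoot markers had log2 changes from -0.41 to -0.31 and none was called, while with the slide as a block all 4 were lower (limma adjusted p = 0.012 to 0.037). The part of these differences in the members was not tested.

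Members were spread over all 5 chromosomes, with 66, 35, 42, 38 and 58 on chromosomes 1 to 5, which is 0.831% to 0.993% of the loci measured on each. The order of genes was taken from the TAIR10.1 annotation, and 52 members (21.8%) lay in 25 clusters, meaning members with at most 5 other protein-coding genes between them. Of the 25194 other loci, 9.18% had a member that near. In 10 clusters the members were direct neighbours. Within 50 genes on either side of TT8 there were 2 members among 90 loci measured, HSD5 and ATHSP22.0.

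The largest cluster, with 4 members on chromosome 2, held CNGC11, CNGC12, AT2G46455 and AT2G46490, with AT2G46490 the brightest at -2.61. CNGC12 and AT2G46455 overlap in the gene table, as do AT2G04378 with AT2G04380 and AT5G28919 with AT5G28920, so the signals in these pairs may not be separate. The neighbours AT1G66090 and AT1G66100 were both bright, at 1.35 and 1.00. AT5G05040 and AT5G05060 stood at -0.36 and 2.21 on either side of a gene detected on no array.

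Some clusters joined a bright and a dim member. AT5G44572 at 0.20 lay beside AT5G44570 at -5.47, and AT4G19500 at -1.17 beside AT4G19510 at -4.20. AT5G56380 and its neighbour AT5G56370 also differed, at -1.62 and -3.80. The pair AT4G09200 and AT4G09250 on chromosome 4 was even, at -2.83 and -2.64. The remaining neighbours were dim. AT1G48690 and AT1G48700 stood at -3.89 and -4.96, AT2G10931 and AT2G10930 at -3.50 and -5.45, and AT5G37440 and AT5G37450 between -5.14 and -4.93, while the overlapping AT5G28919 and AT5G28920 lay between -3.22 and -2.32 and AT2G04380 at -3.59.

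Other clusters had genes between their members. AT1G63880 at -0.90 stood 1 gene away from AT1G63860 at -2.85, and AT5G46510 at -3.26 was 1 gene away from AT5G46490 at -5.11. AT3G47010 and AT3G47030, at -5.04 and -4.69, and RGF3 and ZIP7 were also 1 gene apart, as were AGL14 and AT4G11900 at -4.80 and -3.79. Members with a symbol also shared clusters with loci without one: WRKY38 at -5.36 and AT5G22608 at -2.25, CRA1 at -4.67 and AT5G44065 at -3.03, RLP2 and AT1G17285 at -5.09, and VAMP728 and AT3G24840 at -5.30. The last 3 clusters, AT1G66440 with AT1G66460, AT3G59340 with AT3G59370 and AT5G41860 with AT5G41890, ranged from -5.34 to -4.53.

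**Figure D4:**
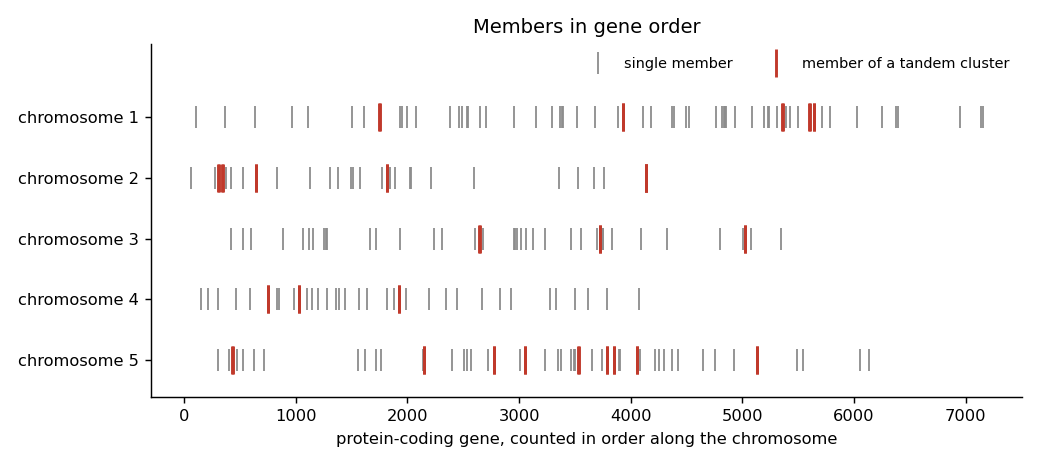
Position of the 239 members on chromosomes 1 to 5, with protein-coding genes counted in their order along each chromosome (x axis), grey ticks for single members and red ticks for the 52 members of clusters. Members occur along all 5 chromosomes, and clusters are present on each.

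Of 30 genes measured between the members of a cluster, 20 were detected on all 8 arrays and 8 on none. Over all 25433 loci these counts were 18301 and 4232. Against 15.7% and 11.0% of all loci tested, 3 of the 20 tested were higher in tt8-3 and 1 lower (limma adjusted p under 0.05). They were AT3G59350 (log2 change 1.01 ± 0.16), AT5G22580 (1.07 ± 0.14) and CAD1, a phytochelatin synthase that detoxifies cadmium (0.63 ± 0.094), and, lower, POLA3, a primase subunit (-0.58 ± 0.13). With the slide as a block the counts were 8 and 4, and with arrays averaged by order no gene was called.

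Among 227 measured genes flanking the clusters, 5 on each side, 146 were detected on all 8 arrays and 52 on none (18301 and 4232 of all 25433 loci). Of 153 tested, 33 were higher and 16 lower, which is to be read against 15.7% and 11.0% of all loci (57 and 46 with the slide as a block, 8 and 1 with arrays averaged by order).

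A further view of each member came from its other probes on the same arrays, which 58 members had, 65 probes in all. Of these probes 26 were detected only in tt8-3, 25 on some other combination of arrays, 13 on none and 1 on all 8. In tt8-3 55 of the 65 were higher, with a median difference of 1.59 log2 units. These probes come from the same arrays as the rule and so describe it further without testing it.

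For 25 of the 58 members, HR4, DAR4, WRR4 and OLEO2 among them, another probe was also detected only in tt8-3. The second probe of HR4 had levels of -2.36, -3.001, -2.01 and -2.40 in tt8-3 and none above -8.07 in wild type. The second probes of DAR4 and WRR4 had means of -2.02 and -2.60 in tt8-3 against -7.37 and -7.83 in wild type. OLEO2 kept its division between replicates on the second probe, at -2.55, -5.09, -2.76 and -4.52 in tt8-3. Other named members did not keep the pattern. The other probes of JMT were each detected on 1 tt8-3 array, with differences between lines of 0.68 and 0.99. Those of CRA1 differed by 0.45 and 0.94, that of BG3 by -0.41 and those of CYP705A5 by -0.54 and 0.02. For CNGC12, THI2.1 and WRKY38 the other probe was detected on 1 tt8-3 array.

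For 10 members another probe was detected on at least 1 wild-type array. The other probes of AT4G34881 stood at 1.46 and 1.81 in tt8-3 against -7.19 and -7.23 in wild type, each detected on 1 wild-type array. The other probe of ZW9 stood at -1.61 against -5.68 and was detected on 3 wild-type arrays, 4.08 log2 units lower in wild type but not silent. AT1G02020 went against its first probe: that probe stood at -1.86 in tt8-3, while the other was detected on all 8 arrays at -5.28 in tt8-3 and -5.02 in wild type.

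**Figure D5:**
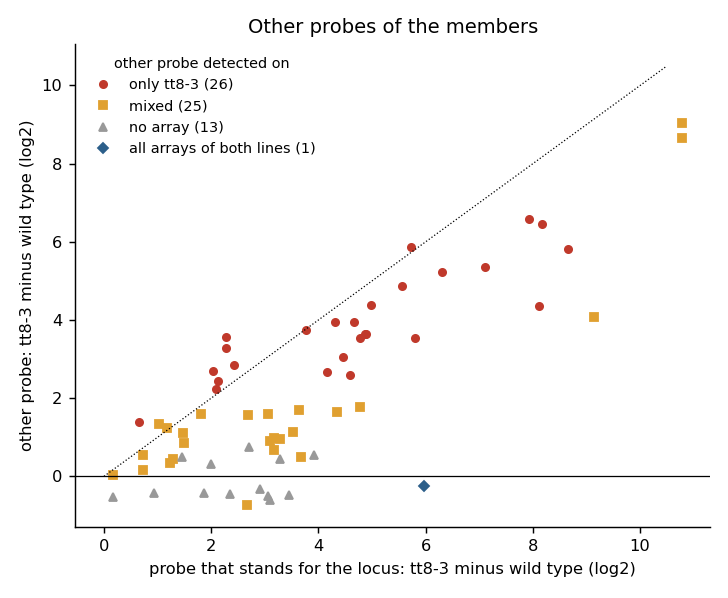
Difference between the lines (tt8-3 minus wild type, log2) for the probe that stands for the locus (x axis) and for each of 65 other probes of 58 members (y axis), with symbols for the arrays on which the other probe was detected and a dotted line of equal differences. 55 of 65 points lie above 0, and the blue diamond near 0 is AT1G02020.

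The edge of the rule was wide. A further 92 loci were detected on 3 of 4 tt8-3 arrays and no wild-type array, with a median level of -5.89, and 142 on all 4 tt8-3 arrays and 1 wild-type array, with a median of -5.14. The brightest of these over all 8 arrays was AT1G25141, at 2.33, 2.33, 2.63 and 2.78 in tt8-3 and none above -5.94 in wild type. By the mean over all 8 arrays the next were AT1G52270, AT5G39160, CSA1 and AT1G15330, with tt8-3 means of -1.16, -2.91, -1.74 and -3.08. By the tt8-3 mean alone BGAL7 (-2.10) and AT5G58680 (-2.58) stood above AT5G39160 and AT1G15330, and these were looked up after their values were seen.

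Just inside the rule were AT2G19960, PP2-A6, a phloem lectin, AT1G73610, AT1G67855 and AT5G04730, the 5 dimmest members, with mean levels from -6.13. A second flag of the scanner software, which asks whether a spot is positive and significant rather than well above background, was set on no wild-type array for 50 members and on all 4 for 71. Used in place of the first flag, it chose 104 loci, 50 of them members. The median bound of the 50 was 2.79 on the log2 scale and that of the 71 was 0.80. The probes are built on the reference genome of the accession Columbia while both lines are Ws, and the sequence of the probed genes in either line was not tested.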

How the data were processed

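Processed signals (linear intensity, background-subtracted), median and background intensities and 0 or 1 flags were deposited. Per the file headers the software was Agilent Feature Extraction 10.7.1.1. The deposited value table holds log2 values, which matched the scaled scanner signals after centring each probe on its slide median (correlation at least 0.9999 on every array, column medians -0.061 to 0.114); its centring and direction rest on this comparison. Further steps are not given in the sources used here. The 75th percentile of the signal was 547 to 1113 per array, no spot was saturated, and signal over background and the number of arrays limit the precision.

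Each array was scaled by its own 75th percentile. Accessions named 34358 of 43603 probes by 1 gene (TAIR10.1 table) and left 9245 unnamed. The brightest probe stood for a locus with several (6940 of 25433). Loci detected on all 4 arrays of a line were tested with limma 3.58.1 in R 4.3.3 on slide averages (2 against 2), Benjamini-Hochberg adjusted, threshold 0.05. Only the limma step was tried on simulated data, with noise independent between slide averages. The detection rule, the bounds, the choice of probe and the clusters were not tried in this way. Same-numbered arrays share a slide per the labels, and their deviations correlated at 0.28 to 0.38 (slide averages 0.78), so the slide is a pairing; blocked counts stand beside the lists they change. Over both lines the consensus correlation of arrays within slide averages was -0.21. The other reading of the design, arrays averaged by their order on the slide, was run too. Spot means were not among the columns used, so normexp (offset 50) ran on spot medians.

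The members and lists were chosen with earlier results of these data known. By rule, named genes were the 20 brightest members, cluster members, up to 4 per function class, list members, 4 with other probes, the 5 dimmest, 5 near misses and called neighbours, of which flanking ones are given as counts. Role groups, and other members with a symbol, were chosen after their values were seen. Motif and protein comparisons were not run.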

Additional observations from a re-analysis of the deposited data

Results flagged for a closer look

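In 10 of 178 groups of 4 arrays checked among the named genes, 1 array stood far from the other 3 by Dixon's criterion; chance gives about 1 in 20. The widest was CSA1, at -2.90 on wild-type replicate 2 against -8.00 on the nearest other array. In tt8-3, replicate 4 stood apart for AT5G28919 (-2.06) and AT5G56370 (-4.14). In wild type, replicate 2 stood apart for AT5G56370 (-8.11), AGL14 (-8.70), AT3G47010 (-8.35), AT5G41860 (-7.04) and AT5G44570 (-6.96), replicate 4 for AT3G47030 (-6.96) and replicate 3 for AT1G66440 (-5.67). All these wild-type values other than that of CSA1 belong to spots not well above background.

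Outside the named loci, 144 probes without a gene name were detected on all 4 tt8-3 arrays and no wild-type array, against 1 with the opposite pattern. They were 1.56% of the 9245 unnamed probes, against 0.99% of named probes, with a median level of -4.54 in tt8-3 and a highest of 4.64.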

How the results depend on the processing

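The second detection flag gave 104 genes in place of 239, of which 50 were shared, and a bound of at least 2-fold left 150. Asking every probe of a locus to meet the rule gave 205, and accepting any probe 310. Leaving out an array or a slide of a line gave 239 to 440 genes; this loosens the rule, so that no member can be lost and nothing about stability is shown. The median level in tt8-3 was -4.67, and it was -2.13 after scaling to the array median, -4.76 after quantile normalization, -2.67 with normexp, -3.26 with normexp without spots of flagged background (an alternative chosen after seeing the data) and -4.67 to -4.58 with arrays or slides left out. The median bound on the log2 scale was 1.32, and in the same order 1.22, 1.13, 0.92, 0.29 and 1.16 to 1.49. The number of clusters was 21 with at most 2 genes between members and 33 with at most 10. Bounds under 0 (log2) occurred for 6 named members under some setting. With normexp without flagged spots these were AT2G46455 (-0.00553), RGF3 (-0.034), CYP705A5 (-0.15), ZIP7 (-0.12), GLR2.2 (-0.036) and CNGC11 (-0.0470). With quantile normalization they were CYP705A5 (-0.0700) and CNGC11 (-0.11). With arrays or slides left out, bounds ran from -0.052 to 0.33 for CYP705A5, from -0.16 to 0.64 for ZIP7 and from -0.066 to 0.26 for CNGC11. No other named bound changed sign.

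Counts of loci higher and lower by limma were 3024 and 2112. With the slide as a replicate block they were 6494 and 5919 on slide averages, where the averages of the lines on a slide are paired. On single arrays, where all arrays of a slide share a block, they were 3894 and 2699. They were 524 and 73 with arrays averaged by order on the slide, 91 and 14 with normexp, 1864 and 1528 with normexp without flagged spots, 1573 and 825 without the filter on dim probes, and 7186 and 6704 on the value table. Scaling to the array median gave 2153 and 2597, which turns the balance of the calls. With arrays or slides left out, 1487 to 2967 were higher and 603 to 2066 lower; a lone slide average is then assumed to vary like the others. The causes were not tested.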
